A study of Sus scrofa with 15 samples.

Results

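The subcortical maternal complex (SMC) genes were examined in pig oocytes before and after *in vitro* maturation. They were found by symbol among the genes of the pig count table. Of the 8 symbols looked for, *NLRP5*, *OOEP*, *PADI6* and *NLRP9* were paired with a pig Ensembl gene ID and had a row in that table, which lists 22516 genes in all. *TLE6*, *NLRP2*, *KHDC3L* and *NLRP14* were not paired with an ID and were not analysed here. Each of the 4 genes found had 1 transcript with a count. For *NLRP5* (ENSSSCG00000044019) this was ENSSSCT00000082811.1 with 4816 bases, and for *OOEP* (ENSSSCG00000004285) ENSSSCT00000004737.5 with 584 bases. For *PADI6* (ENSSSCG00000003484) it was ENSSSCT00000003870.6 with 2289 bases, and for *NLRP9* (ENSSSCG00000003307) ENSSSCT00000003671.4 with 3405 bases.

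Oocytes came from sow ovaries collected at an abattoir. Germinal vesicle (GV) oocytes were taken fresh from their cumulus complexes and received no maturation. The other oocytes were matured in culture for 44 h by the labels and sorted by eye, with MII oocytes having a first polar body and ‘damaged’ oocytes having none. Each library held 15 pooled oocytes and each group had 5 libraries. No donor age is given, and all groups were untreated apart from maturation, so stage and culture cannot be told apart.

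The SMC is a protein assembly below the cell membrane of the oocyte and early embryo. Its genes are maternal effect genes, that is, the embryo relies on the product the oocyte has stored. The best known core consists of NLRP5 (also called MATER), OOEP (FLOPED), TLE6 and KHDC3L, and PADI6 is needed for the cytoplasmic lattices, the fibrous store of proteins in the oocyte. Several NLRP proteins of the oocyte have been linked to the complex or to the same phase of development. Transcription is largely silent in a fully grown oocyte, and stored mRNA is translated or removed during maturation.

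Library totals lay between 6.40 and 23.6 M estimated counts. The GV library of lowest total (replicate 3) was left out of the tests. Levels are given as CPM, counts relative to the library total, here scaled by TMM factors, which align the bulk of the genes between libraries. The tables were at odds over 7 libraries, since 7 of 15 columns with gene counts summed to what the transcript file of a differently named library sums to. The labels of the transcript files were used. By them the nearest library of 15 of 15 libraries was of the same stage, with MII and ‘damaged’ oocytes taken as the same stage. A swap of labels between MII and ‘damaged’ libraries would not be seen this way. Values from the 8 libraries whose names matched in both tables (2 GV, 3 MII, 3 ‘damaged’) are given beside the results. The oocyte markers summed to between 13999 and 21819 TPM, a level per transcript length, in the 14 libraries, with 9 of 9 measured markers above 0 in each group. The sum of 10 cumulus and granulosa markers was 16.0 to 22.4 TPM in GV, 16.7 to 25.3 TPM in MII and 21.0 to 26.9 TPM in ‘damaged’ oocytes. *FST* held most of it, with means of 15.4 TPM in GV, 20.3 TPM in MII and 23.3 TPM in ‘damaged’ oocytes. The sums of the markers of theca and stroma (1.80 to 14.3 TPM), endothelium (2.82 to 8.93 TPM, of which *PECAM1* held nearly all) and blood (0.180 to 1.05 TPM) were low in all 3 groups. Some of these markers rose with maturation all the same. With TMM factors 2 of 3 cumulus markers tested passed as higher in MII than in GV oocytes. These were *FST* (log2 fold change 1.47, FDR 3.64e-07) and *PTGS2* (1.26, FDR 0.00146). The 1 endothelial marker tested, *PECAM1*, also passed as higher (1.81, FDR 3.41e-05). On library sizes 1 cumulus and 0 endothelial markers passed as higher. The cumulus marker *STAR* did not pass with TMM factors (−0.40, FDR 0.339), but passed as lower in MII oocytes on library sizes (−1.33). Among untested cumulus markers, *FSHR*, *AMH*, *INHA*, *INHBA*, *HAS2* and *TNFAIP6* had a lower mean TPM in MII than in GV oocytes and *CYP11A1* a higher one. None of these means was above 0.930 TPM. The part of these cells in the results was not tested. *CYP17A1* and *PTX3* had no value. They either had no count in the 8 columns of gene counts used or were left out when transcripts were matched to genes. Less RNA per oocyte and a smaller share of the RNA cannot be told apart in such libraries.

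*PADI6* fell most among the 4 genes. In the GV libraries it stood at 431, 527, 561 and 726 CPM (replicates 1, 2, 4 and 5). The MII libraries held 150.3, 118, 129.8, 103 and 144 CPM in the order of their numbers. In the ‘damaged’ libraries the level was 109, 103, 104, 142 and 157 CPM. The lowest GV library thus held more than any library after maturation. *PADI6* fell by 2.11 on the log2 scale from GV to MII oocytes (SE 0.167, 95% interval −2.46 to −1.76, FDR 1.16e-09), a 4.33-fold decrease. It fell by 2.19 on the log2 scale in ‘damaged’ oocytes (SE 0.167, FDR 7.67e-10). With the 8 libraries of matching names these values were −2.33 and −2.24, and *PADI6* was past the threshold of FDR 0.01 in both. Of all 13217 genes tested, 15.9% had a lower log2 fold change between MII and GV oocytes.

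*NLRP5*, which is required in mouse mothers for their embryos to pass the earliest cleavage, had the lowest level of the 4 genes and also fell. The GV libraries had 36.2, 45.3, 54.6 and 59.7 CPM. The MII libraries lay close together at 19.4, 20.1, 18.1, 15.7 and 19.4 CPM. The ‘damaged’ libraries spread more widely, with 11.4, 18.7, 13.5, 20.7 and 31.7 CPM. No library after maturation reached the lowest of the 4 GV libraries. *NLRP5* fell by 1.39 on the log2 scale in MII oocytes (SE 0.221, 95% interval −1.85 to −0.93, FDR 1.36e-05) and by 1.42 on the log2 scale in ‘damaged’ oocytes (SE 0.221, FDR 1.08e-05). With the 8 libraries of matching names the values were −1.66 and −1.44, both past FDR 0.01. GV replicate 3 had 17.9 CPM when all 15 libraries were scaled together, within the range of the matured libraries, while the other GV libraries had 37.7 to 62.0 CPM on that scale.

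*NLRP9*, an NLRP gene best known from oocytes, moved the other way. Its GV libraries held 1287, 1285, 1592 and 1742 CPM. In the MII libraries it stood at 2681, 3588, 4288, 4149 and 2984 CPM, all above GV. The ‘damaged’ libraries held 1734, 3832, 2624, 4316 and 5009 CPM. ‘Damaged’ replicate 1 lay just below the highest GV library, so those groups overlapped. *NLRP9* rose by 1.25 on the log2 scale in MII oocytes (SE 0.236, 95% interval 0.76 to 1.74, FDR 9.39e-05), a 2.38-fold increase, and by 1.16 on the log2 scale in ‘damaged’ oocytes (SE 0.236, FDR 2.08e-04). With the 8 libraries of matching names these were 1.21 and 1.24, both past FDR 0.01. Between MII and GV oocytes, 15.8% of the genes tested had a higher log2 fold change. On library sizes alone, without TMM factors, *NLRP9* did not pass the threshold (0.34, FDR 0.237, and 0.29, FDR 0.318).

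*OOEP*, which encodes a small KH domain protein of the core, gave no call between stages with TMM factors in the fit of 3 groups. The GV libraries had 881, 631, 627 and 594 CPM. The MII libraries ranged widely, with 639.8, 400.1, 216, 448 and 682 CPM. The ‘damaged’ libraries had 605, 466, 238, 365 and 471 CPM. Replicate 3 was the lowest library in both matured groups, and matured libraries overlapped the GV libraries. The log2 fold change was −0.61 for MII oocytes (SE 0.278, 95% interval −1.19 to −0.03, FDR 0.0562) and −0.72 for ‘damaged’ oocytes (SE 0.278, FDR 0.0261). With the 8 libraries of matching names it was −0.55 and −0.79, again without a call. Leaving out MII replicate 3 changed the first value to −0.35. On library sizes alone *OOEP* was past the threshold, at −1.52 (FDR 2.98e-05) and −1.60 (FDR 1.75e-05). GV replicate 3 had 338 CPM against 617 to 916 CPM in the other GV libraries when 15 libraries were scaled together.

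**Figure D1:**
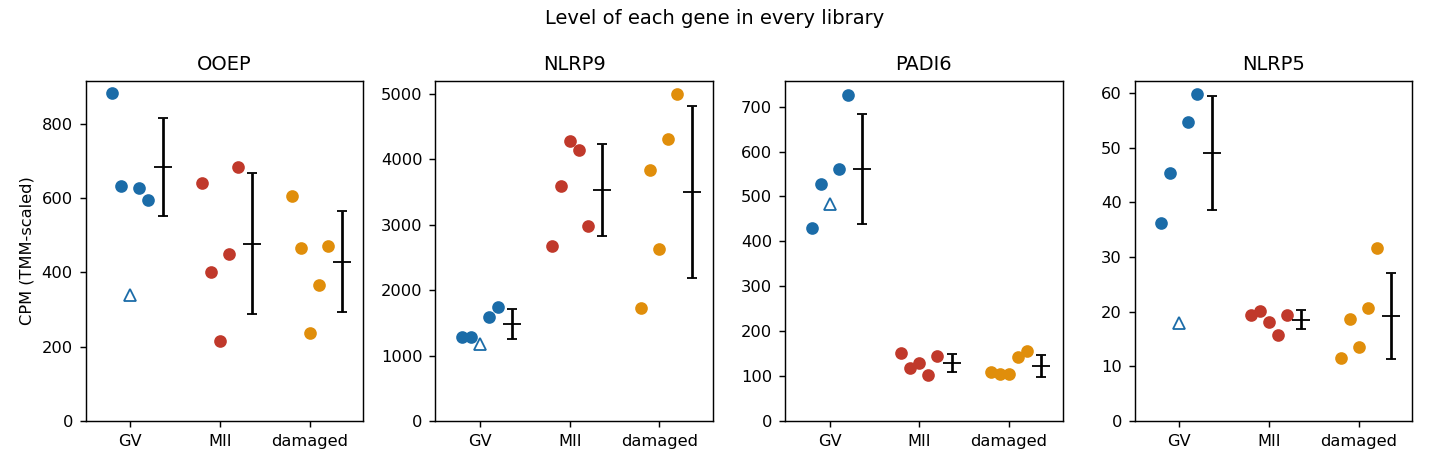
Level of *OOEP*, *NLRP9*, *PADI6* and *NLRP5* in TMM-scaled CPM (linear axis from 0) in each library, with replicates 1 to 5 from left to right. Filled points are the 14 libraries tested, the bar beside them is their mean and SD, and the open triangle is GV replicate 3 on the scale of all 15 libraries. *PADI6* lies at 431 CPM or above in the 4 GV libraries tested and at or below 157 CPM after maturation, whereas *NLRP9* is higher in the 5 MII libraries than in any GV library.

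Among the 4 genes, 1 was higher and 2 were lower at FDR 0.01 in MII than in GV oocytes, where 28.2% of all genes tested were higher and 34.2% lower. The same 3 genes passed in ‘damaged’ against GV oocytes in the same directions, where the shares of all genes were 28.0% higher and 33.4% lower. The comparisons with GV share the GV libraries. With TMM factors, only *PADI6* of the 4 genes also changed by more than 2 on the log2 scale, the limit for a differentially expressed gene (DEG). On library sizes *NLRP5* passed this limit as well, at −2.30 in MII (FDR 1.61e-07) and −2.29 in ‘damaged’ oocytes (FDR 1.73e-07). DEGs that were lower made up 17.0% of all genes in MII and 16.4% in ‘damaged’ oocytes. Without GV replicate 5, *PADI6* missed this limit in MII oocytes at −1.98. GV and MII libraries did not overlap for *PADI6*, *NLRP5* and *NLRP9*, which was so for 60.0% of all genes, and GV and ‘damaged’ libraries did not overlap for *PADI6* and *NLRP5*, which was so for 58.4%. With 4 genes, these counts cannot be set apart from the genes at large.

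The scaling moved all 4 values by nearly the same amount. Between MII and GV oocytes, all genes tested had a median log2 fold change of −0.17 with TMM factors and of −1.09 on library sizes. Measured from that median, *NLRP9* stood at 1.42 with TMM factors and 1.43 on library sizes. *PADI6* stood at −1.94 on either scale, *NLRP5* at −1.22 and −1.21, and *OOEP* at −0.44 on both. A scaling factor acts alike on all genes of a library, so the distance between the genes was bound to be nearly the same. The calls of *NLRP9* and *OOEP* at FDR 0.01 and of *NLRP5* as a DEG did depend on the scaling.

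**Figure D2:**
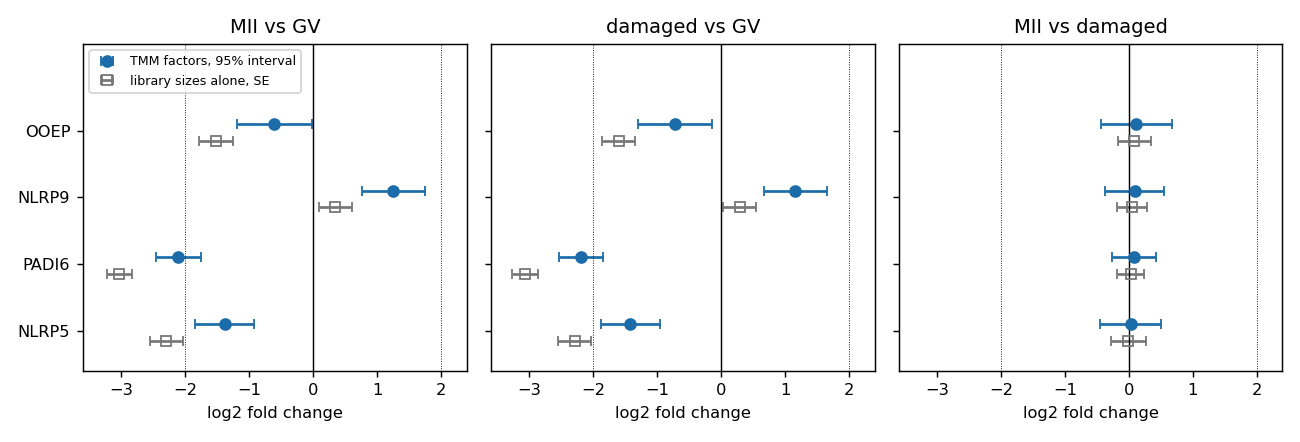
Log2 fold change of each gene in the 3 comparisons. Filled circles with bars give the value with TMM factors and its 95% interval, open squares the value on library sizes with its SE, and dotted lines mark a change of 2 in either direction. *NLRP9* lies above 0 and *PADI6* and *NLRP5* below 0 in both comparisons with GV under both scalings, and all 4 genes lie near 0 between MII and ‘damaged’ oocytes.

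The comparison of MII with ‘damaged’ oocytes asked whether the polar body marks a difference in these transcripts. None of the 4 genes gave a call. The log2 difference (MII minus ‘damaged’) was 0.11 for *OOEP* (95% interval −0.44 to 0.67), 0.09 for *NLRP9* (−0.38 to 0.55), 0.08 for *PADI6* (−0.27 to 0.42) and 0.03 for *NLRP5* (−0.45 to 0.51). As folds, these intervals ran from 0.736 to 1.59 for *OOEP*, the widest, and from 0.831 to 1.34 for *PADI6*, the narrowest. Differences within these intervals remain compatible with the data. Of all genes tested, 0.0% passed FDR 0.01 with limma, 195 had an unadjusted p under 0.05, and both edgeR and DESeq2 also called 0 genes. In limma with the replicate number as a block, 353 had an unadjusted p under 0.05 and the lowest FDR was 0.0231. Whether a number marks a collection is not known.

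The libraries of 1 group did not agree equally well for each gene. The SD of log2 CPM within ‘damaged’ oocytes was 0.62 for *NLRP9* and 0.57 for *NLRP5*, against a median of 0.23 over the 6469 genes with a mean above 10 CPM. Replicate 1 was the lowest and replicate 5 the highest ‘damaged’ library for both. Within MII oocytes *OOEP* had the widest spread of the 4 genes, with an SD of 0.66, and *NLRP5* the narrowest, with 0.14. *PADI6* kept an SD between 0.22 and 0.31 in the 3 groups. These SDs rest on 4 or 5 libraries each and were not tested against each other.

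Levels of different genes were compared per transcript length, as TPM, which the authors scaled to the same total in every library and which is not TMM-scaled. In GV oocytes *OOEP* had the highest level of the 4 genes at 4051 TPM ± 305 (SD, n = 4), and ranked between 20 and 28 among the genes of a library. *NLRP9* followed with 1085 TPM ± 312 and a rank of 71 to 212. *PADI6* came next with 640.0 TPM ± 235 and a rank of 134 to 412. *NLRP5* was far lower, with 25.2 TPM ± 8.59 and a rank of 3807 to 4993. The ranges of *NLRP9* and *PADI6* overlapped between libraries, but *NLRP9* was the higher of both in each GV library.

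After maturation the order at the top was no longer clear. *OOEP* averaged 1372 TPM ± 529 (SD, n = 5) in MII oocytes and *NLRP9* 1240 TPM ± 292, with *NLRP9* higher in some libraries and *OOEP* in others. In ‘damaged’ oocytes the levels were 1285 TPM ± 395 for *OOEP* and 1292 TPM ± 572 for *NLRP9*. *PADI6* dropped to 69.1 TPM ± 11.4 in MII and 69.0 TPM ± 19.7 in ‘damaged’ oocytes, with ranks of 1324 to 1799 and 1216 to 1785. *NLRP5* stood at 4.49 TPM ± 0.450 in MII and 4.95 TPM ± 2.52 in ‘damaged’ oocytes. The ranks of *NLRP9* overlapped those in GV, at 65 to 128 in MII and 50 to 223 in ‘damaged’ oocytes, while those of *OOEP* did not, at 52 to 179 and 67 to 184.

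The 4 genes together made up 5801 TPM ± 635 in GV, 2685 TPM ± 307 in MII and 2651 TPM ± 761 in ‘damaged’ oocytes. Within this sum, *OOEP* held 70.2% ± 6.64 in GV oocytes, 50.0% ± 14.9 in MII and 49.2% ± 13.5 in ‘damaged’ oocytes. *NLRP9* held 18.5% ± 3.72 in GV, 47.2% ± 14.7 in MII and 48.0% ± 13.2 in ‘damaged’ oocytes. *PADI6* went from 10.8% ± 2.91 to 2.59% ± 0.442 in MII and 2.65% ± 0.498 in ‘damaged’ oocytes. *NLRP5* made up 0.429% ± 0.114 of the sum in GV, 0.169% ± 0.0279 in MII and 0.181% ± 0.0459 in ‘damaged’ oocytes.

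**Figure D3:**
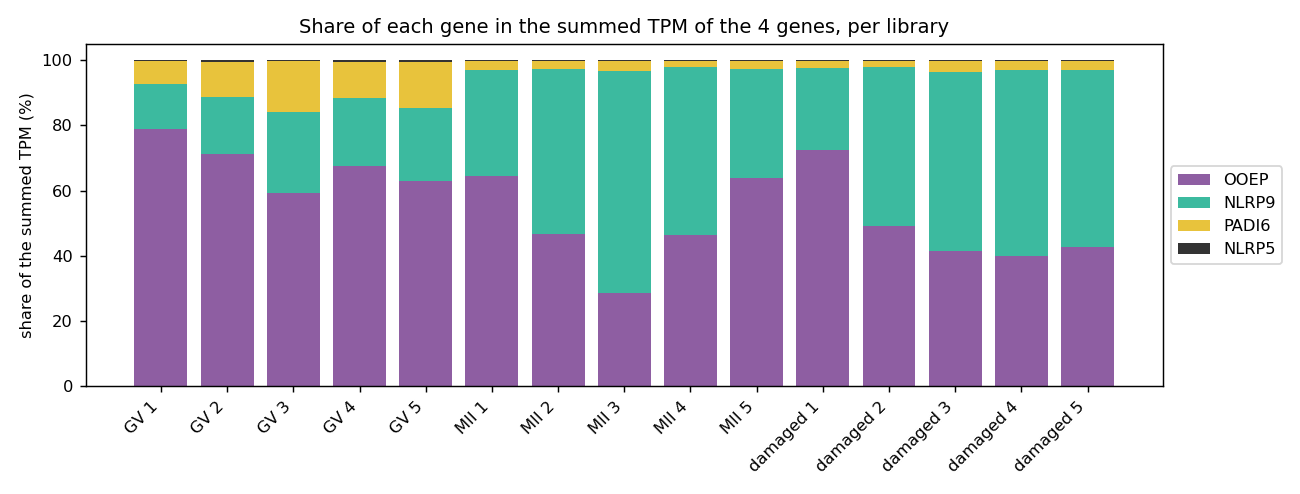
Share of *OOEP*, *NLRP9*, *PADI6* and *NLRP5* in their summed TPM (%), with 1 bar per library and all 15 libraries shown. *PADI6* takes 7.09 to 15.6% in GV libraries and 1.96 to 3.33% after maturation, and the share of *OOEP* ranges from 28.5 to 64.6% among MII libraries.

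A ratio between genes within a library does not depend on how libraries are scaled, so the 6 ratios of TPM among the genes were compared. This was chosen after the values were seen, and 18 comparisons were made in all with a two-sided exact permutation test. *NLRP9* over *PADI6* was 1.73 in GV oocytes and 17.7 in MII oocytes as geometric means, a 10.3-fold increase. In ‘damaged’ oocytes it was 17.6, a 10.2-fold increase. Since the genes' own levels had already moved apart in opposite directions, no p is given for this ratio or for *NLRP9* over *NLRP5*. GV replicate 3 had a ratio within the range of the other GV libraries for this pair.

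*NLRP9* over *NLRP5* rose 6.19-fold in MII and 5.98-fold in ‘damaged’ oocytes. GV replicate 3 stood apart from the other GV libraries here, with a log2 ratio of 6.57 for *NLRP9* over *NLRP5* against 5.35 to 5.68 in the other GV libraries, and 5.90 for *PADI6* over *NLRP5* against 4.50 to 4.75. It also lay below them for *OOEP* over *NLRP9* (1.25 against 1.51 to 2.51) and *OOEP* over *PADI6* (1.92 against 2.15 to 3.47), and was not in the tests. *PADI6* over *NLRP5*, the pair of falling genes, was 25.3 in GV, 15.3 in MII and 14.8 in ‘damaged’ oocytes. *PADI6* fell by more than *NLRP5* in these libraries (exact p = 0.0159 for each comparison with GV, permutation test). The p of 0.0159 is the smallest that 4 against 5 libraries allow. The exact p values are unadjusted. With a Benjamini-Hochberg adjustment over all 18 comparisons, including the ratios given without a p, 0.0159 became 0.0357 and 0.0317 became 0.0571. The levels behind these ratios had been seen too, so the p values are no independent support for the differences. *OOEP* over *NLRP9* went from 3.84 in GV to 1.06 in MII (exact p = 0.0159) and 1.04 in ‘damaged’ oocytes (exact p = 0.0317). *OOEP* over *PADI6* went from 6.64 to 18.8 in MII (exact p = 0.0317) and 18.4 in ‘damaged’ oocytes (exact p = 0.0159). For *OOEP* over *NLRP5* the exact p was 0.111 in MII and 0.143 in ‘damaged’ oocytes. Between MII and ‘damaged’ oocytes the 6 log2 ratios differed by 0.0085 to 0.074, with p of 0.770 or more in the exact permutation test.

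**Figure D4:**
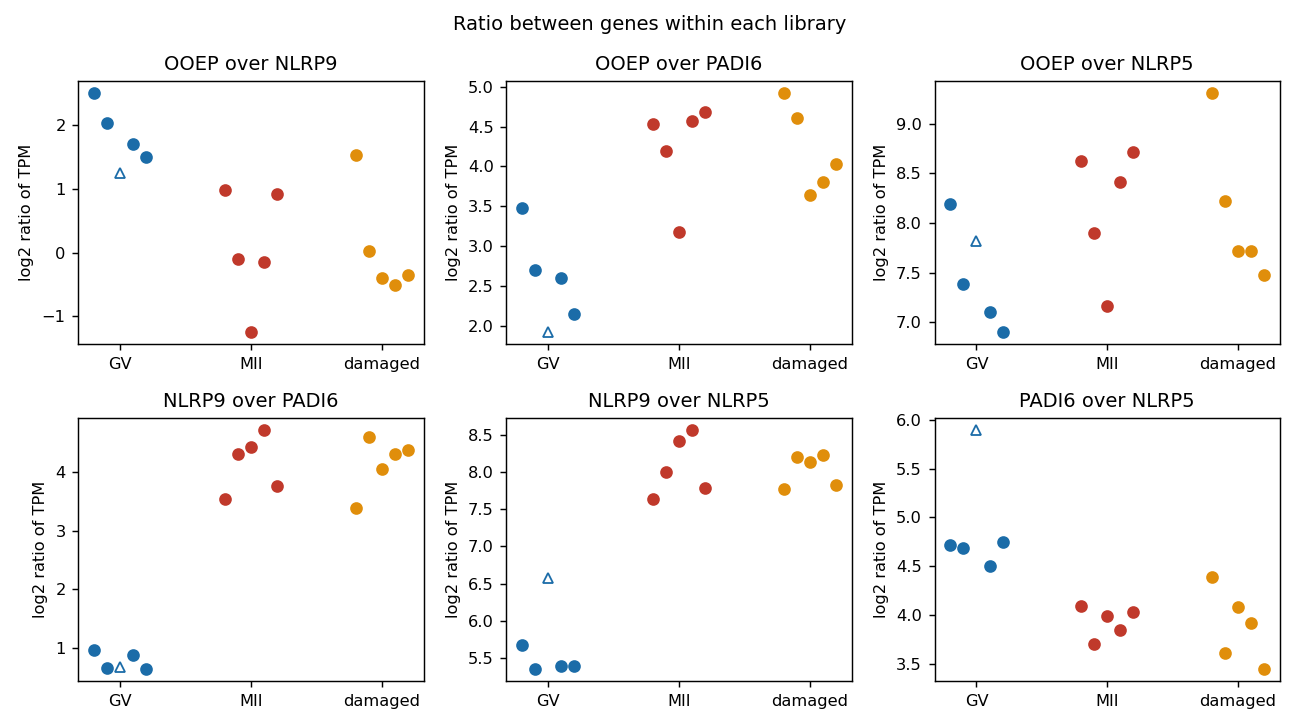
Log2 ratio of TPM between each pair of the 4 genes in every library, with replicates 1 to 5 from left to right in each group and a separate vertical scale per panel. The open triangle is GV replicate 3, which was not in the tests. *NLRP9* over *PADI6* lies between 0.65 and 0.96 in the 4 GV libraries tested and between 3.38 and 4.72 in the 10 matured libraries.

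The genes lie in clusters with relatives, here by RefSeq positions on Sscrofa11.1 found by symbol. *NLRP9* (chr6:59941318-59974129) and *NLRP5* (chr6:60375670-60418908) belong to a run of NLRP genes on chromosome 6 that also holds *NLRP2* (chr6:59191459-59212026). The genes of this run did not all move one way, with *NLRP9* and *NLRP4* higher and *NLRP8* and *NLRP5* lower after maturation. *NLRP4*, between *NLRP9* and *NLRP5*, had 75.4 CPM ± 9.55 (SD, n = 4) at the GV stage and 376 CPM ± 87.1 (n = 5) as MII oocytes (log2 fold change 2.30, FDR 1.51e-09, and 1.38 on library sizes). *NLRP8*, which ends 3608 bases before *NLRP5*, went from 33.6 CPM ± 4.57 to 10.7 CPM ± 1.73 (log2 fold change −1.64, FDR 4.33e-06). *NLRP13*, beside *NLRP8*, gave no call (0.27, FDR 0.237), and its sign turned on library sizes (−0.64). The counts of *NLRP5*, *NLRP9*, *NLRP8* and *NLRP13* were whole numbers in 15 of 15 libraries (within 0.05), so Kallisto divided none of their reads with another transcript, whereas *NLRP4* had 3 transcripts with divided reads.

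*PADI6* (chr6:75969855-75987097) is the last of the 5 genes of the peptidylarginine deiminase family on chromosome 6. The family is named for turning arginine into citrulline, and no such activity was measured here. Its neighbour *PADI4*, 3580 bases away, had 16.2 CPM ± 2.48 at the GV stage and 29.2 CPM ± 5.39 in MII oocytes (log2 fold change 0.85, FDR 1.81e-04), but was at −0.07 on library sizes, and its reads were divided with other transcripts. *OOEP* (chr1:53006898-53007877) starts 7824 bases after *KHDC3L* on chromosome 1, in a group of genes with a KH domain, an RNA-binding fold. Their relative *DPPA5* had 3039 CPM ± 786 in GV and 3296 CPM ± 501 in MII oocytes without a call (0.15, FDR 0.45), and was at −0.77 on library sizes.

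**Figure D5:**
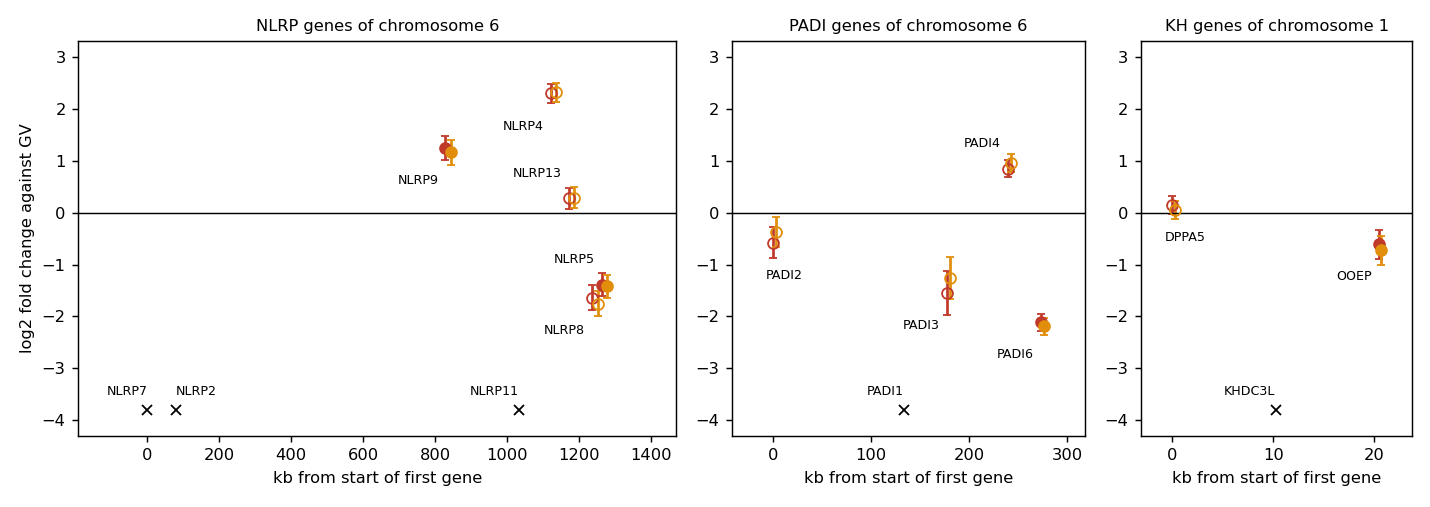
Log2 fold change against GV (TMM factors, bars are SE) by distance in kb from the first gene of each cluster, for MII (red) and ‘damaged’ oocytes (orange, shifted slightly to the right). Filled points are SMC genes, open points their relatives, and crosses at the bottom mark genes without a tested value. *NLRP9* and *NLRP4* lie above 0 and *NLRP8* and *NLRP5* below it, and *PADI6* lies below and *PADI4* above 0.

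Related genes were counted in lists chosen with earlier results of these data known, and are given for MII against GV oocytes. Among all 13217 genes tested, 3726 rose and 4519 fell past the FDR threshold with TMM factors. The counts for all genes on library sizes were 1447 and 7607. Whether the lists differed from all genes in these counts was not tested. Of the other genes with NLR domains, 8 were tested, of which 2 rose and 5 fell, with a median log2 fold change of −1.71 against −0.17 for all genes. The DEGs among them were *NOD1* (−3.50) and *NOD2* (−3.34), sensors of bacterial cell wall fragments, *NLRC5* (−2.08), an activator of MHC class I genes, and *NLRP4* (2.30). *NOD2* was low, at 0.836 CPM in GV and 0.0612 CPM in MII oocytes, and so was *NLRC5*, at 2.28 and 0.609 CPM. Of 7 other PADI and TLE genes tested, 1 rose and 4 fell (median −0.58), and the transcriptional co-repressor *TLE3* (−3.28) was the DEG. *TLE3* was also low, at 1.06 CPM in GV and 0.113 CPM in MII oocytes. On library sizes 0 rose and 6 fell.

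Of 15 partners of the complex and other maternal effect genes tested, 4 rose, 4 fell and 7 did not pass (median −0.10). On library sizes, 4 rose and 11 fell, where 1447 rose and 7607 fell among all 13217 genes tested. *ZAR1*, which binds and stores maternal mRNA, fell from 159.8 CPM ± 29.1 to 6.35 CPM ± 1.31 (log2 fold change −4.64). *BTG4*, an adaptor for the removal of poly(A) tails, rose from 2530.2 CPM ± 1064 to 17917 CPM ± 995 (2.92). *HSF1*, a heat shock transcription factor (−3.63), and *UBE2D1*, a ubiquitin-conjugating enzyme (2.06), were the other DEGs. *UBE2D1* was at 1.14 on library sizes, under the limit for a DEG. Of 5 oocyte transcription factors tested, 0 rose and 3 fell (median −2.68), and on library sizes 0 rose and 5 fell. The 3 with TMM factors were *FIGLA* (−3.24), *NOBOX* (−2.85) and *LHX8* (−2.68), which act in the growing oocyte.

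The 2 named genes whose log2 CPM was most like that of each SMC gene over the 14 libraries were listed by Pearson's r, which largely reflects the step between stages. For *PADI6* they were *TUFM* (0.992) and *ARHGAP22* (0.991). For *NLRP5* they were *LMNA* (0.985) and *MAU2* (0.979). *CCNB3* (0.979) and *DCAF1* (0.971) were most like *NLRP9*, and rose with it by 1.42 and 1.27 on the log2 scale in MII oocytes. *NDUFV2* (0.938) and *TP53RK* (0.922) were most like *OOEP*.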

How the data were processed

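RNAseq of 15 pig oocyte libraries was used. Per the labels and methods, poly(A) RNA was amplified with SMART-Seq HT, so levels reflect RNA with a poly(A) tail. The authors trimmed reads with AfterQC and made the expected counts and TPM per transcript with Kallisto 0.43 (version by the submitters' processing notes) from Ensembl cDNA of Sscrofa11.1. The authors also deposited a table of expected counts per gene, from tximport with lengthScaledTPM and without normalization between libraries. Of its 15 columns, 7 summed to what the file of a differently named library sums to, and were left out. Transcripts were assigned to genes by matching sums to the other 8 columns. This found 18715 genes with at least 99.98% of each library's counts, left out 239 genes, and gave gene counts for all libraries by the same formula.

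Counts were tested with limma 3.58.1 (voom) after filterByExpr and TMM of edgeR 4.0.16 in R 4.3.3, in 1 fit of 14 libraries with 3 groups and Benjamini-Hochberg FDR over 13217 genes. A DEG had an FDR under 0.01 and a log2 fold change beyond 2 in either direction, as in the study. TMM factors were 1.35 to 1.73 in GV and 0.794 to 0.922 in the other libraries. DESeq2 1.42.0, edgeR's quasi-likelihood test and library sizes were among the alternatives. On simulated counts of 13217 genes for the comparison of MII with GV, 200 of 200 genes changed by 3 on the log2 scale were found, with 1 false call. These counts had the same spread for all genes and no shift of the bulk of genes between stages. They do not bear on smaller changes or on the choice of scaling. Ratios, summaries and figures used Python 3.11.15 with scipy 1.17.1.

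The genes and lists were chosen with earlier results of these data known. Named genes were the SMC genes, the 2 most correlated genes of each, and up to 4 DEGs per list by size. Symbols came from a table of gene names and positions from RefSeq (Sscrofa11.1), matched by symbol. No test of transcript usage was made, since each SMC gene had 1 transcript with a count. The study describes 5 independent collections, so p-values measure the spread between these libraries. Within groups, chi-square per gene between libraries was 14.7 to 199 times that of counting error, so no library's counts matched another's within counting error.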

Additional observations from a re-analysis of the deposited data

Results flagged for a closer look

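*OOEP* in GV replicate 1 (881 CPM) stood apart from the other 3 GV libraries tested, which had 594 to 631 CPM, because its gap to the nearest of them took up nearly the whole range of the group. It was the only one of 16 groups of values in which this happened, and chance gives about 1 in 20. Without this library the log2 fold change of *OOEP* was −0.46 in MII and −0.58 in ‘damaged’ oocytes, again without a call.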

How the results depend on the processing

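With other tools, filters or libraries, *PADI6*, *NLRP5* and *NLRP9* kept their direction against GV, and so did *OOEP*. *PADI6* and *NLRP5* were past FDR 0.01 under each of the 18 alternatives run per comparison. On library sizes with 14 libraries *OOEP* gained a call (−1.52 and −1.60 for MII and ‘damaged’) and *NLRP9* lost it (0.34 and 0.29), and *NLRP5* became a DEG (−2.30 and −2.29). With all 5 GV libraries on library sizes, added after seeing the data, the values were −1.36 and −1.43 for *OOEP* and 0.38 and 0.33 for *NLRP9*. With all 5 GV libraries the mean of *OOEP* in GV oocytes was 3650 TPM. The log2 ratio of *OOEP* over *NLRP9* then differed by −1.74 between ‘damaged’ and GV oocytes (exact p = 0.0238, permutation test, 0.0429 after Benjamini-Hochberg adjustment). That of *OOEP* over *PADI6* differed by 1.66 between MII and GV oocytes (exact p = 0.0159, permutation test, 0.0317 after the same adjustment). Leaving out 1 library at a time gave −0.77 to −0.35 for *OOEP* in MII and −0.86 to −0.52 in ‘damaged’ oocytes, without a call. Between MII and ‘damaged’ oocytes, where no gene had a call, signs turned. *NLRP5* was at −0.0074 on library sizes, −0.029 with DESeq2, −0.052 with edgeR, −0.0070 with all 5 GV libraries on library sizes and −0.22 with the 8 libraries of matching names, which gave −0.090 for *PADI6* and −0.031 for *NLRP9*. Leaving out 1 library gave −0.13 to 0.24 for *NLRP5*, −0.084 to 0.37 for *OOEP* and −0.14 to 0.24 for *NLRP9*.

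DEGs numbered 2849 between MII and GV oocytes, 2703 between ‘damaged’ and GV oocytes and 0 between MII and ‘damaged’ oocytes. Across the alternatives they numbered 2720 to 4017, 2590 to 3798 and 0. With the replicate number as a block there were 2857, 2699 and 0 DEGs, *OOEP* was at −0.38 in MII (FDR 0.0215) and −0.49 in ‘damaged’ oocytes (FDR 0.00403, a call), and *NLRP5* at −0.014 between MII and ‘damaged’ oocytes. The labels do not say that a number marks a collection. Same-numbered libraries of 2 groups deviated together with r of −0.21 to 0.55, and 8 of 14 libraries were most like one of their own number. The planned tests of transcript usage were not run, because each gene had 1 transcript with a count. Depth is lowest for *NLRP5*, with 152 to 1419 counts per library.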
